A study of Mus musculus with 12 samples.

Results

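The genes described here build and anchor the actin skeleton of mouse bone marrow-derived macrophages (BMDM), or form the intermediate filaments and the nuclear lamina that are mechanically coupled to it. They are a list of 47 genes given by name, with no threshold on a difference between groups, for actin, its crosslinkers and turnover factors, the integrin adhesion complex, myosin and tropomyosin, small GTPases and their kinases, vimentin, the lamins and the transcription factor SRF. Of the 47, 46 were in the deposited table, and all 46 reached the minimum of 1 TPM in at least 2 of the 12 libraries, so they are 46 of the 11194 genes tested. The formin gene Diaph1 was not analysed here. No listed gene fell just outside the minimum, and the lowest value of any member in any library was 2.38 TPM, for Fscn1. TPM, the usual unit of transcript abundance, divides the reads of a gene by its length and scales each library to a total of 1000000, so levels can be compared between genes, while the depth of each library and the counting error of a value are unknown.

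BMDM were grown from marrow of C57Bl/6 mice aged 8 to 10 weeks that were Camkk2+/+ (labelled WT) or carried the germline deletion Camkk2-/- (labelled KO), with medium conditioned by L929 cells, in plates of ultra-low attachment. They were then embedded in a collagen and hyaluronic acid hydrogel, which remained soft, remained soft with interleukin 4 (IL-4) added, or was stiffened by UV light with the photoinitiator Irgacure at 24 h after embedding, and were cultured for a further 48 h before release with collagenase. Each of the 6 groups, namely WT soft, WT soft+IL-4, WT stiff, KO soft, KO soft+IL-4 and KO stiff, had 2 libraries that the labels call biological replicates. The stiff gel also received the UV light and the initiator and held more collagen, so in a comparison of stiff with soft these cannot be told apart. How many mice stand behind a library and the IL-4 dose of these cultures are not given in the labels.

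Macrophages move through a matrix by polymerising actin at their front, which the Arp2/3 complex branches under the control of Rac, Cdc42 and the WASP and WAVE proteins, and by pulling with myosin II under the control of RhoA and the ROCK kinases. Integrins tie the filaments to the matrix through talin, kindlin, vinculin, paxillin, zyxin and the focal adhesion kinases, and in macrophages much of this occurs in podosomes, small adhesions around an actin core. Force is passed on to the nucleus, where lamin A/C is known to scale with tissue stiffness, and the pool of free actin controls MRTF and SRF, which transcribe actin and adhesion genes. IL-4 acts through STAT6 and drives macrophages to an alternatively activated state with an elongated shape.

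Before the members, 3 facts about the libraries bear on every comparison. The deleted gene, Camkk2, was at 44.2 and 11.7 TPM in WT soft, 30.5 and 29.8 TPM in WT with IL-4, 23.3 and 23.7 TPM in WT stiff, 46.6 and 11.5 TPM in KO soft, then 11.5 and 8.54 TPM in KO cells given IL-4 and 37.7 and 10.0 TPM in KO stiff. The second library of WT soft and the first of KO soft and of KO stiff go against their labels. Libraries are therefore named by their labels throughout, and a difference between genotypes rests on those labels. WT stiff 1 stood apart from all others. A sum over 8 cell division genes was 245 TPM there against 30.2 to 44.8 TPM in the other 11 libraries. These 8 genes were chosen after their values were seen. WT stiff 2 lay closer to the libraries labelled WT soft+IL-4 than to WT stiff 1, and over all genes tested WT stiff 2 and WT soft+IL-4 2 were the closest 2 of the 12 libraries, with a mean absolute difference of 0.115 in log2(TPM + 1). The 8 macrophage markers were present and summed to 23571 to 57980 TPM. The lower sums were in the 4 libraries with IL-4 and both labelled WT stiff. Most of that sum was Lyz2, at 19076 to 51543 TPM. Cd68 ranged from 1813 to 2123 TPM and Cd14 from 151 to 827 TPM. Neutrophil markers summed to 43.1 to 101 TPM, dendritic cell markers to 4.76 to 20.8 TPM and endothelial markers to 2.99 to 12.9 TPM, each highest in WT stiff 1. Mmp8 (27.9 to 71.1 TPM) was the highest neutrophil marker, and Vamp5 stood in that sum in place of the listed Camp. Of the dendritic cell markers Ccr7 reached 19.1 TPM and Flt3 1.12 TPM. Of the endothelial markers Pecam1 reached 11.6 TPM and Cdh5 0.294 TPM. Markers of B cells, mast cells, fibroblasts, smooth muscle, T or NK cells and erythroid cells summed to at most 3.83 TPM for any list in any library. Their part in the results was not tested.

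Together the 46 genes took 2.11% to 2.30% of the TPM total in 11 libraries and 1.90% in WT stiff 1. The highest was Actb, beta-actin, with a median of 2998 TPM over the 12 libraries. It was followed by the capping protein gene Capg with a median of 2087 TPM, profilin (Pfn1) with 2016 TPM, cofilin (Cfl1) with 1812 TPM, the myosin light chain gene Myl6 with 1689.9 TPM, gamma-actin (Actg1) with 1684 TPM and vimentin (Vim) with 1487 TPM. The lowest medians were those of Lmnb1 (4.37 TPM), the fascin gene Fscn1 (5.42 TPM), the focal adhesion kinase gene Ptk2 and Parvg (9.03 TPM). Ptk2b, which encodes PYK2, the relative of Ptk2 known from blood cells, had a median of 69.6 TPM. Reads shared with pseudogenes or sister genes limit some of these levels, since 40.2% of the 31-base words in the transcripts of Actg1, 27.0% of those of Tpm3, 23.5% of those of Actb and 21.3% of those of Myl12b also occur in transcripts of other genes. The values of Actb and Actg1, of Myl12a and Myl12b and of Tpm3 are for that reason uncertain. Between Actb and Actg1 themselves the shared words were 3.76% of those of Actb.

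**Figure D1:**
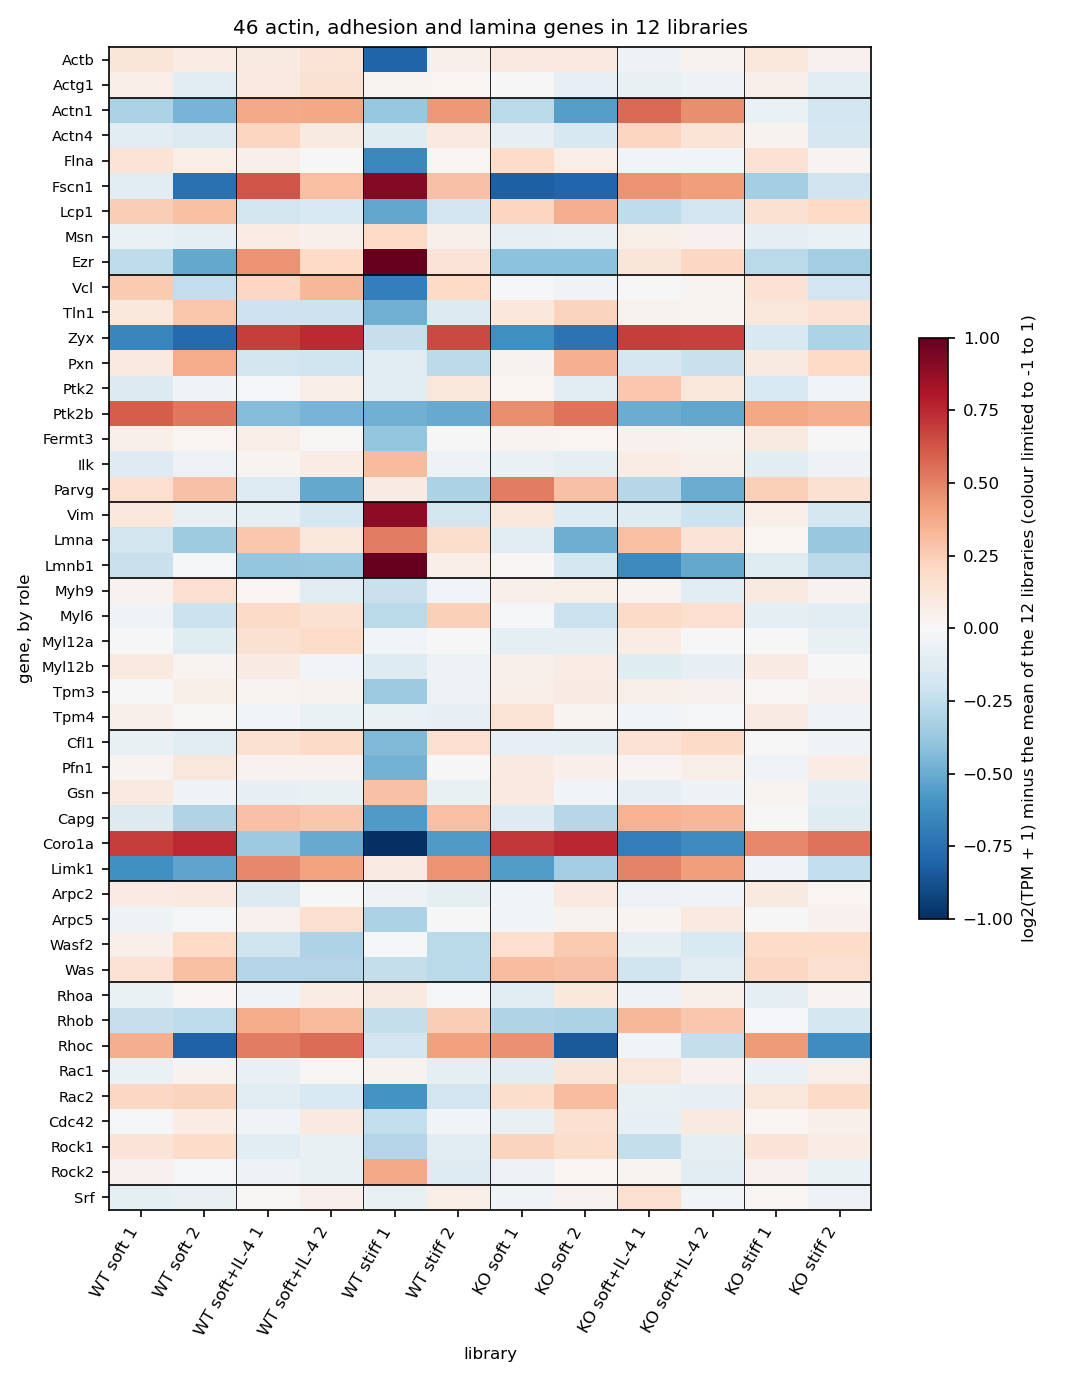
Each row is a gene, grouped by role between black lines, and each column is a library; the colour gives log2(TPM + 1) minus the mean of the gene over the 12 libraries, limited to -1 to 1. The 4 libraries with IL-4 and WT stiff 2 look alike, the libraries labelled KO stiff look like the soft ones, and WT stiff 1 has a pattern of its own, with the lowest Actb (1622 TPM) and the highest Vim (2996 TPM) and Lmnb1 (37.3 TPM).

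The first question was which of these genes differ with IL-4 in the soft matrix. In limma on log2(TPM + 1), with 1 model for all 12 libraries and Benjamini-Hochberg adjustment over the 11194 genes, 7 of the 46 members were past an adjusted p of 0.05 between WT soft+IL-4 and WT soft, as were 10.7% of all genes tested. Of these 3 were higher (4.61% of all genes) and 4 lower (6.09%). With the same labels in KO, 10 were past, against 10.3% of all genes, 5 of them higher (4.33% of all genes) and 5 lower (5.95%). The 7 called in WT (Zyx, Limk1, Rhob, Coro1a, Ptk2b, Lcp1 and Was) were all among the 10 called in KO and moved in the same direction, which makes the whole of the WT list and 70.0% of the KO list. The 2 comparisons share no library, but both use the spread of each gene from 1 model, so their calls are not independent. The overlap over all genes was not counted. The median log2 fold change of the 46 members was 0.01 in WT and -0.02 in KO, beside -0.05 for all genes in both, so the members as a group lay close to the rest. Groups did not overlap for 37 members in WT (61.3% of all genes) and for 36 in KO (60.4% of all genes). For 1 gene with 2 against 2 libraries, no permutation p can be below 33.3%, so the calls rest on the spread that limma pools over genes and groups.

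Zyx, which encodes zyxin, a LIM protein of focal adhesions and stress fibres (chromosome 6, 42349630 to 42360213, plus strand, GRCm38), rose with IL-4 in both genotypes. It was at 103 and 94.5 TPM in WT soft and at 264 and 275 TPM in WT soft+IL-4, while it was at 106 and 97.3 TPM in KO soft and 263 and 263 TPM in KO soft+IL-4. All libraries with IL-4 lay far above all soft ones. The log2 fold change was 1.44 in WT (SE 0.224, limma adjusted p = 0.00401) and 1.36 in KO (SE 0.224, limma adjusted p = 0.00498). Limk1, the LIM kinase that phosphorylates cofilin and thereby slows filament severing (chromosome 5, 134656039 to 134688598, minus strand), went from 13.3 and 14.2 TPM to 29.5 and 27.8 TPM in WT and from 13.8 and 16.3 TPM to 29.7 and 28.1 TPM in KO. Its log2 fold change was 1.01 in WT (SE 0.144, limma adjusted p = 0.00246) and 0.90 in KO (SE 0.144, limma adjusted p = 0.00424). Rhob, a small GTPase of endosomes and the member of its family most known to be inducible (chromosome 12, 8497661 to 8500009, minus strand), rose from 132 and 130.3 TPM to 201 and 194 TPM in WT, a log2 fold change of 0.59 (limma adjusted p = 0.026). In KO it rose from 126 and 125 TPM to 195 and 188 TPM, a log2 fold change of 0.61 (limma adjusted p = 0.0225).

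The falls were led by Coro1a, coronin 1A, which binds filaments and the Arp2/3 complex in blood cells (chromosome 7, 126699773 to 126707787, minus strand). Coro1a was at 633 and 659 TPM in WT soft and 305 and 275 TPM in WT soft+IL-4, while it was at 641 and 659.5 TPM in KO soft and 242 and 253 TPM in KO soft+IL-4. The groups were far apart and the replicates close. It changed by -1.15 on the log2 scale in WT (SE 0.163, limma adjusted p = 0.00238) and by -1.39 in KO (SE 0.163, limma adjusted p = 0.000849). Ptk2b, whose product PYK2 is a calcium-responsive adhesion kinase (chromosome 14, 66153257 to 66281052, minus strand), went from 104 and 99.4 TPM to 50.5 and 49.3 TPM in WT and from 95.1 and 100.4 TPM to 48.4 and 47.4 TPM in KO. Its log2 fold change was -1.02 in WT (SE 0.0768, limma adjusted p = 8.78e-05) and -1.01 in KO (SE 0.0768, limma adjusted p = 8.46e-05), with the smallest adjusted p of any member in either comparison. The related kinase gene Ptk2 did not pass, with log2 fold changes of 0.11 and 0.23.

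Lcp1 and Was completed the falls. Lcp1 encodes L-plastin, the filament bundler of blood cells (chromosome 14, 75131101 to 75230842, plus strand), and was at 521 and 544 TPM in WT soft, 388 and 397 TPM in WT soft+IL-4, 512 and 568 TPM in KO soft and 369.6 and 386 TPM in KO soft+IL-4. Its log2 fold changes of -0.44 in WT and -0.51 in KO (limma adjusted p = 0.0349 and 0.0189) were lost under median-of-ratios scaling, where they were -0.39 and -0.46. Was, the Wiskott-Aldrich protein that activates Arp2/3 downstream of Cdc42 (chromosome X, 8081453 to 8090498, minus strand), was at 83.7 and 93.5 TPM in WT soft and 61.6 and 61.3 TPM in WT soft+IL-4. In KO the values were 93.6 and 92.6 TPM without and 65.6 and 69.6 TPM with IL-4. The log2 fold changes of Was were -0.52 and -0.46 (limma adjusted p = 0.0047 and 0.00831).

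Another 3 members passed in KO and not in WT. Actn1, alpha-actinin 1, a crosslinker of stress fibres and adhesions (chromosome 12, 80167547 to 80260371, minus strand), was at 88.0 and 72.4 TPM in KO soft and 157 and 147 TPM in KO cells given IL-4, while it was at 85.2 and 76.9 TPM in WT soft and 139 and 139 TPM in WT soft+IL-4. The log2 fold change of Actn1 was 0.92 in KO (limma adjusted p = 0.0269) and 0.77 in WT (limma adjusted p = 0.053). Fscn1, fascin, which bundles the filaments of filopodia and podosomes (chromosome 5, 142960343 to 142973185, plus strand), was low everywhere, with 2.38 and 2.43 TPM in KO soft, then 7.13 and 6.95 TPM in KO cells given IL-4, 4.54 and 2.54 TPM in WT soft and 8.20 and 6.33 TPM in WT soft+IL-4. The log2 fold change of Fscn1 was 1.24 in KO (limma adjusted p = 0.0157) and 0.89 in WT (limma adjusted p = 0.058). Parvg, gamma-parvin, a partner of integrin-linked kinase in blood cells (chromosome 15, 84324026 to 84342978, plus strand), went from 12.2 and 10.3 TPM to 6.58 and 5.56 TPM in KO, or by -0.79 (limma adjusted p = 0.0257), and from 9.37 and 10.3 TPM to 7.45 and 5.49 TPM in WT, or by -0.55 (limma adjusted p = 0.0952). That these passed in one genotype only is no difference between genotypes. In the test of the interaction of genotype with IL-4, 0 of the 46 members passed in limma, 0 had an unadjusted p under 0.05, and 0.0% of all genes tested passed. The interaction was -0.24 for Coro1a (95% confidence interval -0.76 to 0.28), 0.35 for Fscn1 (-0.47 to 1.17) and 0.15 for Actn1 (-0.54 to 0.84), so the intervals span differences in either direction.

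Of the calls with IL-4, 4 in each genotype were also at least 2-fold on the scale of the test, as were 3.76% and 3.65% of all genes. They were Zyx, Limk1, Coro1a and Ptk2b in WT and Zyx, Fscn1, Coro1a and Ptk2b in KO. Shares of all genes were not counted in the fits that follow. Leaving out any 1 of the 4 libraries compared left 4 to 6 members past the test in WT and 4 to 5 in KO. Zyx, Limk1, Coro1a and Ptk2b passed in all 8 of those fits. Lcp1 and Rhob passed in 0 of the 8 and Was in 5 of them, Parvg and Actn1 in 0 of the 4 in KO. With the 3 libraries that go against their Camkk2 label left out together, which leaves 1 library in WT soft and in KO soft, Ptk2b alone passed in either genotype. Without WT soft 1, where Fscn1 was at 4.54 TPM, Fscn1 passed in WT at a log2 fold change of 1.21, and it passed in 0 of the 4 fits in KO.

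**Figure D2:**
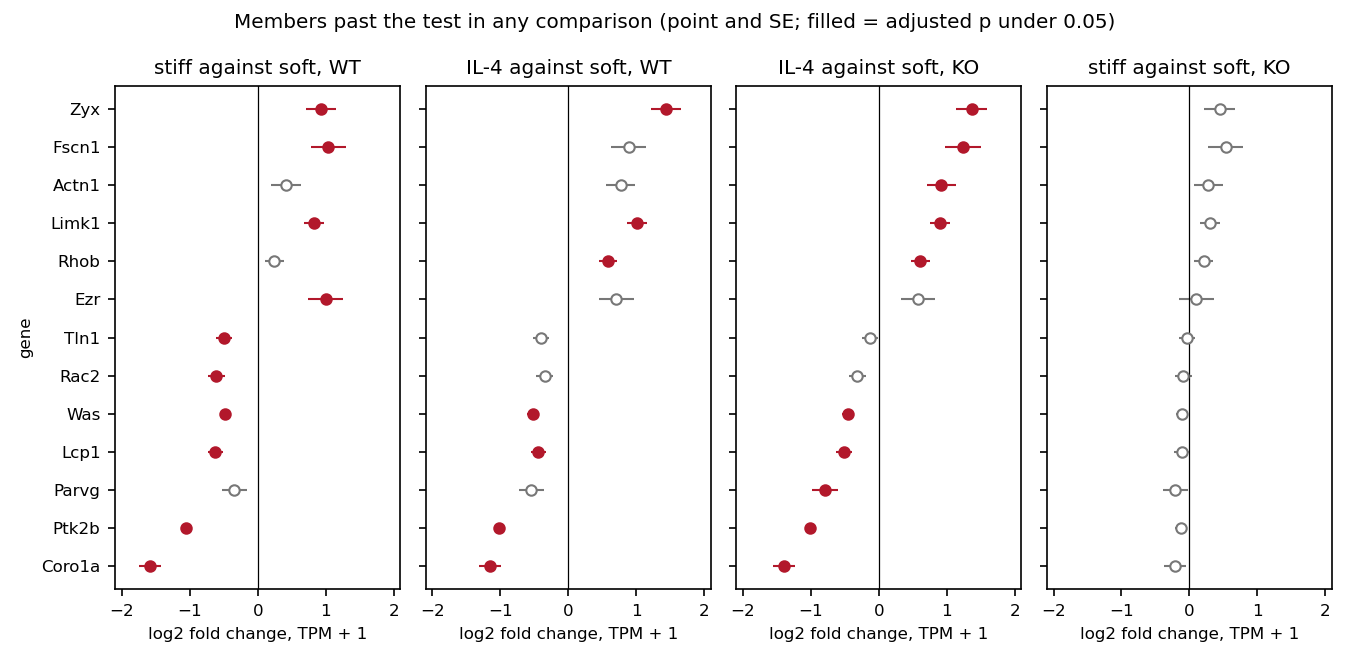
For the 13 members past the test in any comparison, points give the log2 fold change on the log2(TPM + 1) scale and bars its SE from limma, in 4 comparisons of 2 against 2 libraries; filled points had an adjusted p under 0.05. Points for IL-4 in WT and in KO lie at like positions, from Zyx at 1.44 and 1.36 to Coro1a at -1.15 and -1.39, while for stiff against soft in KO all points are open and lie between -0.21 and 0.53.

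The second question was which of them differ between stiff and soft matrix. Between WT stiff and WT soft, 10 of the 46 members passed, where 10.6% of all genes did, 4 of them higher (4.29% of all genes) and 6 lower (6.31%), and 4 were also at least 2-fold, against 3.97% of all genes. The median log2 fold change of the members was -0.03, beside 0.02 for all genes. Members whose groups did not overlap numbered 29, 9 higher and 20 lower in the stiff matrix (42.8% of all genes). This comparison rests on 2 stiff libraries that differ in these genes from each other more than those of any other group, with a mean absolute difference of 0.438 in log2(TPM + 1) over the 46 members, where replicates of the other groups differed by 0.0721 to 0.144. It also shares its soft libraries with the comparison of IL-4 in WT, so the 2 sets of values stand side by side and their likeness is not counted as a result.

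Among the rises, Fscn1 was at 10.3 and 6.30 TPM in WT stiff against 4.54 and 2.54 TPM in WT soft, a log2 fold change of 1.04 (SE 0.258, limma adjusted p = 0.0337). Ezr, ezrin, which links filaments to the plasma membrane (chromosome 17, 6738041 to 6782784, minus strand), was at 28.2 and 23.4 TPM in WT soft and reached 74.2 TPM in WT stiff 1 but 37.1 TPM in WT stiff 2, which gave a log2 fold change of 1.00 (SE 0.256, limma adjusted p = 0.0371). Both lost the call with no filter on low values, and that of Ezr fell to 0.51 when WT stiff 1 was left out. With IL-4, Ezr stood at 46.7 and 39.0 TPM in WT and 36.9 and 39.3 TPM in KO, against 25.2 and 25.2 TPM in KO soft. It did not pass in either genotype in the model of all 12 libraries (log2 fold changes of 0.71 and 0.58). In models of the 4 compared libraries alone Ezr passed with IL-4 in both. Zyx was at 139 and 259 TPM in WT stiff, so that both stiff libraries lay above both soft ones and only WT stiff 2 reached the level seen with IL-4. The log2 fold change of Zyx was 0.93 (SE 0.224, limma adjusted p = 0.0288), 1.38 without WT stiff 1 and 0.49 without WT stiff 2, and it did not pass under median-of-ratios scaling. Limk1 was at 22.0 and 28.8 TPM in WT stiff, a log2 fold change of 0.83 (SE 0.144, limma adjusted p = 0.00665).

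The falls in the stiff matrix were those of Coro1a, Ptk2b, Lcp1, Rac2, Tln1 and Was. Coro1a was at 173 and 265 TPM in WT stiff, a log2 fold change of -1.59 (SE 0.163, limma adjusted p = 0.000387). Ptk2b was at 48.9 and 48.0 TPM, a log2 fold change of -1.06 (SE 0.0768, limma adjusted p = 6.42e-05). Lcp1 was at 308 and 386 TPM, a log2 fold change of -0.63 (limma adjusted p = 0.00764), and Was at 64.0 and 62.5 TPM, a log2 fold change of -0.48 (limma adjusted p = 0.00693).

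In the model of all 12 libraries, Rac2 and Tln1, like Ezr, passed in this comparison alone of the 4. Rac2, the Rac GTPase of blood cells (chromosome 15, 78559167 to 78572783, minus strand), was at 175 and 177 TPM in WT soft and 99.7 and 133 TPM in WT stiff, a log2 fold change of -0.61 (limma adjusted p = 0.0134). With IL-4 it was at 140.1 and 136 TPM in WT and 144 and 143 TPM in KO against 171 and 188 TPM in KO soft, and the log2 fold changes of -0.35 and -0.32 did not pass. Tln1, talin 1, which activates integrins and joins them to actin (chromosome 4, 43531519 to 43562691, minus strand), was at 183 and 206 TPM in WT soft and 121 and 155 TPM in WT stiff, a log2 fold change of -0.50 (limma adjusted p = 0.0247) that did not pass under median-of-ratios scaling. It was at 147 and 147 TPM with IL-4 in WT and at 174 and 173 TPM with IL-4 in KO, against 183 and 198 TPM in KO soft. The log2 fold change of Tln1 with IL-4 in WT was -0.40. In models of the 4 compared libraries alone, Rac2 passed with IL-4 in both genotypes and Tln1 with IL-4 in WT. Tln1 also passed with IL-4 in WT when the replicate number was a block in the model.

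How many members pass depends on which library is left out. The share of all genes past the test was not counted in these fits, so the numbers are not read as particular to the members. Without WT stiff 1 there were 15 (8 higher and 7 lower), and they included Actn1 at 0.83, Capg at 0.52, Rhob at 0.49, Myl6 at 0.36 and Cfl1 at 0.26 on the log2 scale. Without WT stiff 2 there were 27 (10 higher and 17 lower), with Capg and Cfl1 now lower, both at -0.35, and with Lmnb1 at 2.76, Vim at 0.88, Lmna at 0.78, Actb at -0.90, Flna at -0.74 and Vcl at -0.69. The count was 5 without WT soft 1 and 3 without WT soft 2, and 0 when the model held the 4 compared libraries alone (12 at an unadjusted p under 0.05). With the 3 libraries that go against their Camkk2 label left out, Ptk2b was the 1 member past the test. Coro1a and Ptk2b passed in each of the 4 fits with a library left out, Limk1, Lcp1 and Was in 3 of them, Rac2, Tln1, Zyx, Ezr and Fscn1 in 2.

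**Figure D3:**
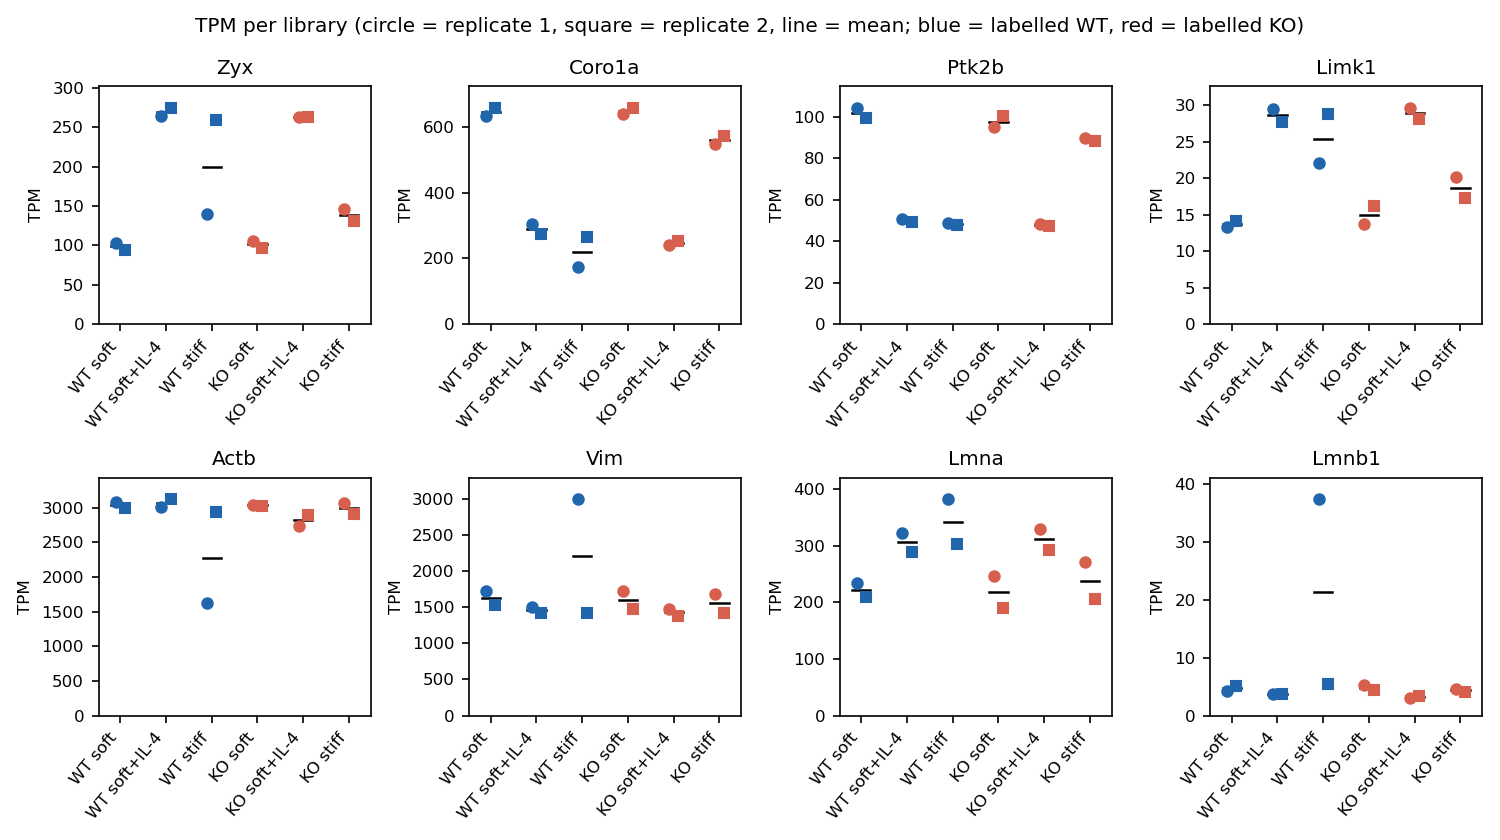
Panels give TPM by group for 8 genes, with a circle for replicate 1, a square for replicate 2 and a line for the mean; blue marks libraries labelled WT and red those labelled KO. The 2 WT stiff libraries are apart for Zyx (139 and 259 TPM), Actb (1622 and 2937 TPM), Vim (2996 and 1418 TPM) and Lmnb1 (37.3 and 5.45 TPM) and together for Ptk2b (48.9 and 48.0 TPM).

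WT stiff 1 was the highest or lowest of the 12 libraries for 27 of the 46 members (58.7%), as it was for 49.1% of all genes tested. Actb was at 1622 TPM there and between 2733 and 3123 TPM in the other 11, and Flna, filamin A, which crosslinks filaments into a gel (chromosome X, 74223461 to 74249820, minus strand), at 138 TPM against 213 to 246 TPM. Vim (chromosome 2, 13573927 to 13582826, plus strand) was at 2996 TPM against 1385 to 1731 TPM. Lmnb1, the B-type lamin known to be high in dividing cells, was at 37.3 TPM against 2.95 to 5.45 TPM. The same library held 40.8 TPM of the division marker Mki67 against 2.74 to 4.49 TPM, and 59.0 TPM of Top2a against 4.14 to 8.76 TPM; the part of dividing cells in the values of the members was not tested. Gsn, gelsolin, which severs and caps filaments, was at 447 TPM against 343 to 390.2 TPM, and the vinculin gene Vcl at 7.97 TPM against 11.1 to 17.1 TPM. WT stiff 2 was at 2937 TPM for Actb, 220.1 TPM for Flna, 1418 TPM for Vim, 5.45 TPM for Lmnb1, 346 TPM for Gsn and 15.5 TPM for Vcl. None of these genes passed over the 2 WT stiff libraries together. The adjusted p from limma was 0.225 for Actb, 0.188 for Flna, 0.515 for Vim, 0.184 for Lmnb1, 0.756 for Gsn and 0.637 for Vcl.

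WT stiff 2 showed little of this. Its mean absolute difference from the mean of the 2 WT soft+IL-4 libraries was 0.0672 in log2(TPM + 1) over the 46 members, and 0.339 from the WT soft mean. No member (0 of 46) was more than 0.5 from the WT soft+IL-4 mean in WT stiff 2, whereas 14 were in WT stiff 1. From the WT soft mean, 10 members were beyond 0.5 in WT stiff 2 and 15 in WT stiff 1. The libraries were in opposite directions from the soft mean, by over 0.25 each, for Cfl1 (-0.35 in WT stiff 1 and 0.26 in WT stiff 2) and Capg (-0.35 and 0.52). These distances are descriptions without a test, since each stands on single libraries. The labels give no IL-4 for WT stiff 2.

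**Figure D4:**
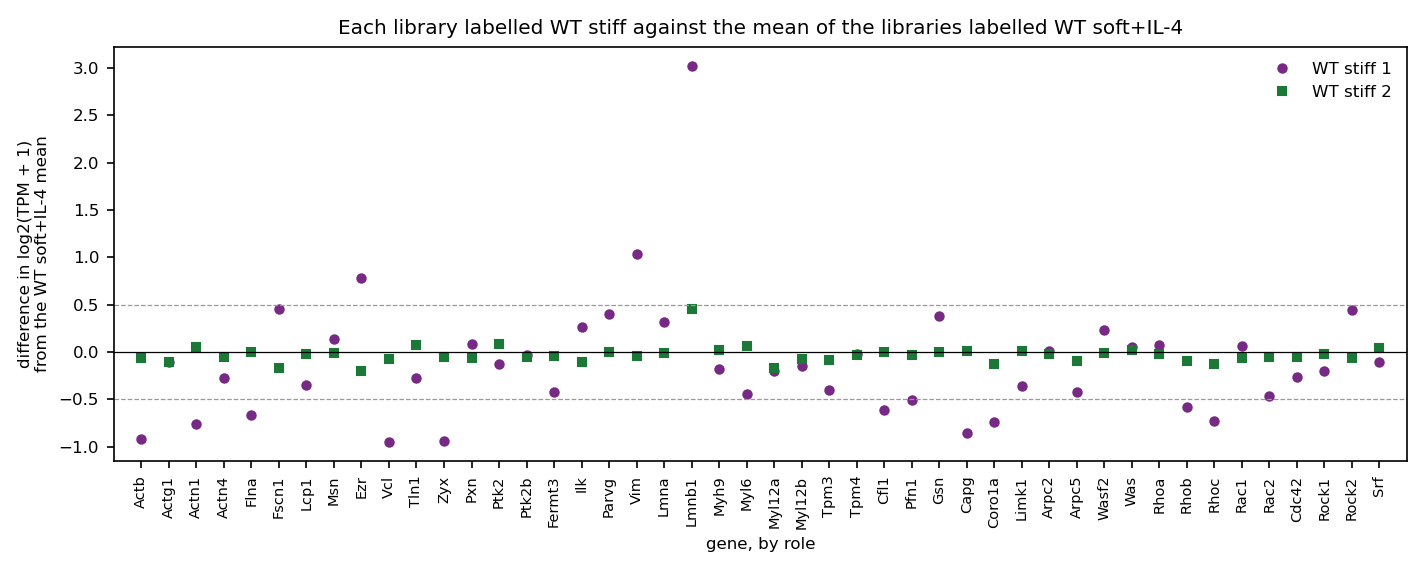
For each of the 46 genes the plot gives the difference in log2(TPM + 1) of WT stiff 1 (circles) and of WT stiff 2 (squares) from the mean of the 2 WT soft+IL-4 libraries, with dashed lines at 0.5 either side of 0. All squares lie within the lines, while 14 circles lie beyond them, from Vcl at -0.95 to Lmnb1 at 3.02.

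In the libraries labelled KO, stiff and soft were close. Of the 46 members, 0 passed in limma and 0 had an unadjusted p under 0.05, beside 0.0447% of all genes past the test, and 16 had groups that did not overlap (32.3% of all genes). Log2 fold changes ran from -0.21 for Coro1a to 0.53 for Fscn1, and 45 of the 46 lay within 0.5 of 0. Coro1a was at 548 and 573 TPM in KO stiff and Ptk2b at 89.9 and 88.6 TPM, below both KO soft libraries in each case. The 95% confidence intervals of the log2 fold changes were -0.58 to 0.15 for Coro1a and -0.30 to 0.04 for Ptk2b, which do not reach the -1.59 and -1.06 measured in WT. Of the other members that passed elsewhere, Lcp1 was at 489 and 507 TPM in KO stiff, Was at 87.2 and 84.6 TPM and Rac2 at 164 and 173 TPM. Tln1 was at 184 and 189 TPM, Rhob at 153 and 138 TPM and Actn1 at 102 and 92.8 TPM. Parvg was at 9.92 and 9.29 TPM and Ezr at 27.9 and 26.4 TPM. Their log2 fold changes lay within 0.3 of 0. Zyx was at 146 and 132 TPM and Limk1 at 20.1 and 17.4 TPM, above both KO soft libraries, with intervals of -0.06 to 0.95 and -0.02 to 0.62. Fscn1, at 3.70 and 4.17 TPM, had an interval of -0.05 to 1.11, which holds the 1.04 measured in WT.

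The difference between these responses was tested as the interaction of genotype with stiffness, given as the KO response minus the WT response. It passed for 2 of the 46 members, Coro1a at 1.37 (SE 0.230, limma adjusted p = 0.0283) and Ptk2b at 0.93 (SE 0.109, limma adjusted p = 0.0101), where 0.974% of all genes passed. Both responses were less negative in KO than in WT, and so count as higher, as were 0.733% of all genes (0.241% lower), and the interaction of Coro1a was also at least 2-fold, as for 0.67% of all genes. KO soft 1, KO stiff 1 and WT soft 2, the libraries that go against their labels in Camkk2, are 3 of the 8 libraries behind it. Without all 3, the interactions were 1.36 for Coro1a and 0.91 for Ptk2b, and neither passed. Left out one at a time, Coro1a passed without WT stiff 1 (1.07) and without WT stiff 2 (1.68) and in 0 of the other 6 fits, and Ptk2b in 4 of the 8. Zyx, at -0.49, did not pass, but did without WT stiff 1 (-0.93). Without WT stiff 2 the interaction passed for 17 members in place of 2, among them Ezr, Lcp1 and Rac2. The share of all genes past the test was not counted for that fit. With all libraries, the interaction did not pass for Fscn1 (-0.50), Limk1 (-0.53), Lcp1 (0.51), Rac2 (0.52) and Ezr (-0.90). That does not show that their responses are alike.

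The roles hold few genes each and are described by their members. Of the 9 genes of the adhesion complex, Zyx was higher and Ptk2b lower with IL-4 in both genotypes, Parvg was lower with IL-4 in KO, and Zyx, Ptk2b and Tln1 changed in WT stiff. Pxn, paxillin, was at 74.9 and 90.6 TPM in WT soft, 61.3 and 60.6 TPM with IL-4 and 64.8 and 58.2 TPM in the stiff matrix. It missed the threshold in each (limma adjusted p = 0.0668 and 0.076). Pxn passed in WT stiff under median-of-ratios scaling, and with IL-4 in WT in a model of the 4 compared libraries alone. Fermt3, the kindlin of blood cells, stood between 229.8 and 245 TPM in every library but WT stiff 1, at 175 TPM, and Ilk between 174 and 200.2 TPM in every library but WT stiff 1, at 237 TPM. Vcl was at 16.2 and 11.1 TPM in WT soft and 15.6 and 17.1 TPM in WT soft+IL-4, a difference within the spread of the soft libraries. In WT stiff Vcl was at 7.97 and 15.5 TPM, followed by 13.3 and 13.1 TPM in KO soft, then 13.5 and 13.7 TPM in KO cells given IL-4 and 14.9 and 11.6 TPM in KO stiff. Ptk2 was at 8.23 and 8.92 TPM in WT soft, 9.02 and 9.63 TPM with IL-4 and 8.42 and 9.96 TPM in the stiff matrix. In KO it was at 9.31 and 8.42 TPM in soft, 11.2 and 9.97 TPM with IL-4 and 8.14 and 8.98 TPM in the stiff matrix. Among the 7 crosslinkers and linkers, Fscn1, Ezr, Lcp1 and Actn1 passed in at least 1 comparison, and Flna, Actn4 and Msn in none. In WT stiff Actn1 was at 81.5 and 144 TPM (log2 fold change 0.42). Actn4, alpha-actinin 4, was at 133 and 129 TPM in WT soft and 166 and 152 TPM with IL-4, and Msn, moesin, at 321 and 315 TPM and 353 and 347 TPM, so that the groups did not overlap while the log2 fold changes were 0.27 and 0.14.

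The myosin and tropomyosin genes carry contraction. None of the 6 (Myh9, Myl6, Myl12a, Myl12b, Tpm3 and Tpm4) passed in limma in any comparison, and 1 of them had an unadjusted p under 0.05 in WT stiff, 1 with IL-4 in WT and 0 with IL-4 in KO. Myh9, the heavy chain of non-muscle myosin IIA and the motor of contraction in these cells, was at 124 and 136 TPM in WT soft, 123 and 113 TPM in WT soft+IL-4, 104 and 119 TPM in WT stiff, 126 and 127 TPM in KO soft, then 124 and 112 TPM in KO cells given IL-4 and 129 and 124 TPM in KO stiff. Its highest value was 1.31 times its lowest. Myl12a stood between 181 and 223 TPM, Myl12b between 310.1 and 362 TPM, Tpm3 between 333 and 455 TPM and Tpm4 between 243 and 282 TPM. Myl6 was between 1912 and 2024 TPM in the 4 libraries with IL-4 and WT stiff 2 and between 1425 and 1706 TPM in the other 7. The log2 fold changes of Myl6 with IL-4, 0.30 in WT and 0.29 in KO, did not pass, except for that in WT in a model of the 4 compared libraries alone.

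The 2 actin genes did not pass in any comparison either. Actb was at 3075 and 2988 TPM in WT soft, 3009 and 3123 TPM with IL-4, and in KO at 3039 and 3027 TPM in soft, 2733 and 2898 TPM with IL-4 and 3065 and 2911 TPM in the stiff matrix. Actg1 was at 1749 and 1541 TPM in WT soft, 1787 and 1858 TPM in WT soft+IL-4, 1698 and 1692 TPM in WT stiff, 1676 and 1577 TPM in KO soft, then 1583 and 1610.3 TPM in KO cells given IL-4 and 1725 and 1545 TPM in KO stiff, and so held its level in WT stiff 1, where Actb was lowest. Among the turnover genes beside Limk1 and Coro1a, Capg, which caps filaments and is known from macrophages, was at 1974 and 1756 TPM in WT soft and 2663 and 2613 TPM in WT soft+IL-4, while it was at 1984 and 1775 TPM and 2756 and 2729 TPM in KO. The groups were clearly separate, but the log2 fold changes of 0.50 and 0.55 missed the threshold (limma adjusted p = 0.201 and 0.172). WT stiff, with Capg at 1461 and 2665 TPM, also enters the spread that the groups share. Its part in the missed threshold was not tested. In the fits of the 4 libraries compared alone, Capg and Cfl1 passed in both genotypes. Cfl1 was at 1749 and 1699 TPM in WT soft and 2047 and 2097 TPM with IL-4, and at 1732 and 1712 TPM and 2035 and 2092 TPM in KO, with log2 fold changes of 0.27 and 0.26. The monomer-binding Pfn1 stood between 1416 TPM, in WT stiff 1, and 2127 TPM and did not pass. Of the genes that nucleate and branch filaments beside Was, Arpc2 stood between 547 and 644 TPM and Arpc5 between 393 and 549.7 TPM. Wasf2, of the WAVE complex, was at 52.7 and 58.6 TPM in WT soft and 44.2 and 40.7 TPM with IL-4. In KO it was at 57.1 and 61.2 TPM in soft and 47.6 and 45.7 TPM with IL-4. None of these 3 passed in any comparison in the model of all 12 libraries. Wasf2 passed with IL-4 in WT under median-of-ratios scaling, and in both genotypes in models of the 4 compared libraries alone. In the fits of the 4 compared libraries alone 17 members passed with IL-4 in WT and 16 in KO. The share of all genes past the test in those fits was not counted, so these numbers are not read as particular to the members.

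Of the lamina, Lmna, which encodes lamin A and C (chromosome 3, 88480147 to 88509956, minus strand), was at 235 and 209 TPM in WT soft, 323 and 289 TPM with IL-4 and 382 and 302 TPM in the stiff matrix. In KO it was at 246 and 190.0 TPM in soft, 329 and 293 TPM in soft+IL-4 and 270.2 and 205 TPM in stiff. Both WT stiff libraries and all 4 with IL-4 lay above all 4 soft libraries, while those of KO stiff overlapped the soft ones. The log2 fold change was 0.62 in WT stiff (95% confidence interval 0.22 to 1.01, limma adjusted p = 0.0557), 0.46 with IL-4 in WT (limma adjusted p = 0.133), 0.52 with IL-4 in KO (limma adjusted p = 0.103) and 0.12 in KO stiff, so Lmna did not pass in any. With the replicate number as a block in the model, Lmna passed in the first 3 of these comparisons, and in a model of the 4 compared libraries alone with IL-4 in WT. Vim was at 1731 and 1527 TPM in WT soft, 1502 and 1420.0 TPM with IL-4, and in KO at 1725 and 1471 TPM in soft, 1471 and 1385 TPM with IL-4 and 1685 and 1425 TPM in the stiff matrix, with log2 fold changes of -0.15 and -0.16 with IL-4. Lmnb1 was at 4.29 and 5.09 TPM in WT soft, 3.70 and 3.73 TPM with IL-4, and in KO at 5.23 and 4.46 TPM in soft, 2.95 and 3.32 TPM with IL-4 and 4.67 and 4.13 TPM in the stiff matrix. Vim and Lmna were higher in replicate 1 than in replicate 2 in each of the 6 groups.

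Of the small GTPases and their kinases, Rac2 and Rhob are described above, and in WT stiff Rhob was at 131 and 184 TPM (log2 fold change 0.24). Rhoa, the switch for contraction through the ROCK kinases, was at 379 and 403 TPM in WT soft, 385 and 419 TPM with IL-4 and 423 and 395 TPM in stiff matrix, and in KO at 367 and 426 TPM, 383 and 412 TPM, and 373 and 405 TPM in the same order. Rac1 stood between 301 and 355 TPM and Cdc42 between 479.5 and 633 TPM, and none of the 3 passed in any comparison. For Rhoa the log2 fold changes ran from -0.03 to 0.06 over the 4 comparisons. The kinase genes Rock1, with 13.0 to 18.9 TPM, and Rock2, with 13.4 to 19.6 TPM, did not pass. Rhoc, which is known from cell invasion (chromosome 3, 104788375 to 104794459, plus strand), differed widely within groups. It was at 326 and 144 TPM in WT soft, 360.1 and 373 TPM in WT soft+IL-4, 221 and 335 TPM in WT stiff, 348 and 141 TPM in KO soft, then 248 and 214 TPM in KO cells given IL-4 and 339.9 and 164 TPM in KO stiff. Its 3 lowest values were in WT soft 2, KO soft 2 and KO stiff 2. Camkk2 was at 11.7, 11.5 and 10.0 TPM in those 3 libraries and at 44.2, 46.6 and 37.7 TPM in the other library of each of those groups, and no test of this was made because the libraries would have to be grouped by what was measured in them. Rhoc passed in no comparison, with an SE of 0.499 on its log2 fold changes, where that of Limk1 was 0.144.

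**Figure D5:**
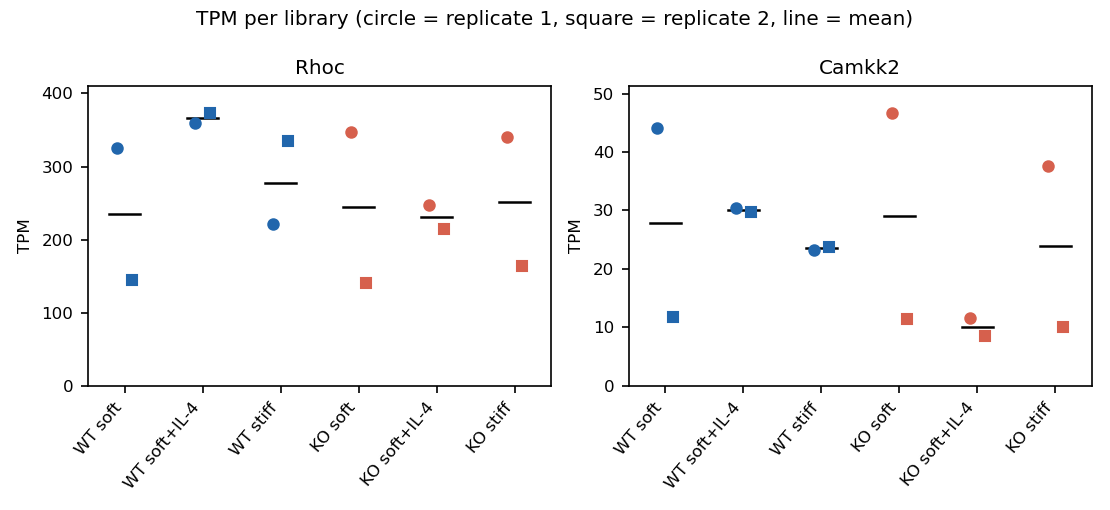
TPM by group for Rhoc on the left and Camkk2 on the right, with a circle for replicate 1, a square for replicate 2 and a line for the mean of each group. In WT soft, KO soft and KO stiff the 2 libraries of a group are far apart in both genes, with Rhoc at 326 and 144, 348 and 141, and 339.9 and 164 TPM.

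Srf, the transcription factor that reads the state of the actin pool (chromosome 17, 46548329 to 46556175, minus strand), did not pass in any comparison and was at 20.8 and 21.0 TPM in WT soft, 22.4 and 23.1 TPM with IL-4 and 21.1 and 23.4 TPM in the stiff matrix. In KO it was at 21.6 and 22.8 TPM in soft, 25.0 and 21.8 TPM with IL-4 and 22.5 and 21.3 TPM in the stiff matrix. SRF binds the CArG box, which is 10 bases long, and this motif was looked for in the 250 bases before each gene start in the RefSeq promoters of GRCm38.p6; the motif reads alike on both strands. Of the 46 members, 38 had an entry, with 49 promoters, and Actb, Pxn, Ptk2, Ptk2b, Lmnb1, Rac1, Rac2 and Rock1 had none. The CArG box was in 4 of the 49 (8.16%), those of Srf, Vcl, Actg1 and Myl6, where 1.47% of all 32851 promoters and 1.14% of those of genes tested held it. The stretches around it are shown for Srf, Vcl and Actg1, which are 3 of the 4 members with a match to the site of the actin pathway, with the box in capitals. The stretch of Myl6 is not printed.
Srf (chr17:46556195-46556264, minus strand, 2 boxes starting 82 and 62 bases before the start): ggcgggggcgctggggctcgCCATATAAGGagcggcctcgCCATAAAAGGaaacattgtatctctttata
Vcl (chr14:20929151-20929200, plus strand, box starting 227 bases before the start): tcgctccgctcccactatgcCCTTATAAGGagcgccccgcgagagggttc
Actg1 (chr11:120348556-120348605, minus strand, box starting 90 bases before the start): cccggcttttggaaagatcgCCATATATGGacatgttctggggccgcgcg
None of the 4 genes passed in any comparison, with log2 fold changes for stiff against soft in WT of 0.08 for Srf, -0.25 for Vcl, 0.05 for Actg1 and 0.11 for Myl6. The spacing bound by STAT6, TTCNNNNGAA, was in 1 of the 49 member promoters (2.04%), that of Pfn1. It was in 5.85% of all promoters and 4.66% of those of genes tested. TTCNNNGAA, the spacing of other STAT factors, was in 0 of the 49, 7.02% of all and 5.88% of those of genes tested. The promoters of Zyx, Limk1, Rhob, Coro1a, Lcp1 and Was held none of these letters in this window.

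The wider pathway was read from 8 further lists, which were chosen with earlier results of these data known. Their counts are set beside the shares of all genes without a test. Among 20 genes of the Arp2/3 complex and other nucleators, 7 were lower and 0 higher in WT stiff, 6 and 0 with IL-4 in WT and 7 and 0 with IL-4 in KO, with medians of -0.19, -0.09 and -0.13 on the log2 scale. Of all genes tested 6.31%, 6.09% and 5.95% were lower in these comparisons. They were led by Abi3, a WAVE complex subunit, which was at 23.1 and 24.5 TPM in WT soft, 11.5 and 9.28 TPM in WT soft+IL-4 and then 8.47 and 9.36 TPM in WT stiff (log2 fold change -1.32 in WT stiff, limma adjusted p = 0.000281), and by Hcls1, a cortactin relative of blood cells, with a log2 fold change of -0.99 in WT stiff. The members Was and Coro1a belong to the same system and were also lower. The members Arpc2, Arpc5 and Wasf2, also of that system, did not pass in any comparison in the model of all 12 libraries. Arpc5 was at 0.14 with IL-4 in WT. Of 21 regulators and effectors of these small GTPases, 7 were lower in WT stiff, 7 with IL-4 in WT and 8 with IL-4 in KO, and 0 higher, beside the same shares of all genes. Rnd3, an atypical GTPase that opposes RhoA, went from 24.4 and 26.5 TPM in KO soft to 6.30 and 7.74 TPM in KO soft+IL-4 (log2 fold change -1.73, limma adjusted p = 9.61e-05), and Pak1, a kinase activated by Rac and Cdc42, had a log2 fold change of -0.97 in WT stiff. Pak1 was at 34.6 and 37.4 TPM in WT soft but 12.1 TPM in WT stiff 1 and 26.2 TPM in WT stiff 2, and its value was -0.44 when WT stiff 1 was left out.

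Of 19 adaptors and kinases of adhesions, 9 passed in each of these comparisons, 2 higher and 7 lower, while 10.6%, 10.7% and 10.3% of all genes did. Src, the kinase that organises podosomes, was at 8.35 and 6.47 TPM in WT soft and 14.9 and 14.1 TPM in WT soft+IL-4 (log2 fold change 0.89, limma adjusted p = 0.00721), and the paxillin relative Lpxn had a log2 fold change of 0.69 in WT stiff. Fgr, a Src family kinase of blood cells, fell and was at 45.9 and 50.4 TPM in WT soft and 14.5 and 13.1 TPM in WT soft+IL-4 (log2 fold change -1.73, limma adjusted p = 0.0013). Of 23 turnover and capping genes, 2 were higher and 2 lower in WT stiff, 1 and 3 with IL-4 in WT and 0 and 2 with IL-4 in KO, beside the same shares of all genes. Their largest values were the -2.29 of Marcksl1, a membrane-bound actin crosslinker, and the 1.47 of Eps8, a capping protein, both in WT stiff, then 0.85 for the actin-sequestering Tmsb10 and -0.67 for the filament-binding Svil, both with IL-4 in WT. Eps8 was at 2.11 and 2.27 TPM in WT soft, 10.8 TPM in WT stiff 1 and 5.61 TPM in WT stiff 2, and at 1.05 without WT stiff 1 it did not pass.

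Of 16 genes of the LINC complex and nuclear envelope, 0 were higher and 1 lower in WT stiff and with IL-4 in WT, and 1 and 1 with IL-4 in KO, beside 10.6%, 10.7% and 10.3% of all genes in either direction, with Lbr, the lamin B receptor, at -1.25 and Banf1 at 0.46 with IL-4 in KO and Tor1aip1 at -0.53 in WT stiff. Of 15 partners and targets of MRTF-SRF and YAP-TEAD, 1 was higher and 1 lower in WT stiff, 1 and 2 with IL-4 in WT and 2 and 2 with IL-4 in KO, beside the same shares of all genes. Tagln2, which stabilises filaments, was at 505 and 405 TPM in KO soft and 936 and 984 TPM in KO soft+IL-4 (log2 fold change 1.08, limma adjusted p = 0.00636), while Axl, a receptor kinase known as a YAP target, had a log2 fold change of -1.42 in WT stiff and Filip1l one of -1.06 with IL-4 in KO. Mkl2, which encodes the SRF partner MRTF-B, had a log2 fold change of 0.81 there (limma adjusted p = 0.0349). Of 9 myosins and their regulators 1 passed, Myo1g at 0.41 with IL-4 in WT. Of 14 tubulin and microtubule genes 1 was higher in WT stiff (Tubb4b at 0.65). With IL-4 in KO 1 of them was higher and 1 lower (Tuba1c at 0.59 and Tuba4a at -0.42). Of all genes 10.6% passed in WT stiff, 10.7% with IL-4 in WT and 10.3% with IL-4 in KO. Tubb4b was at 78.0 and 67.5 TPM in WT soft but 143 TPM in WT stiff 1 and 90.9 TPM in WT stiff 2, and did not pass at 0.32 when WT stiff 1 was left out. In KO stiff 0 genes of the 8 lists passed in limma, beside 0.0447% of all genes. The interaction of genotype with stiffness passed for Abi3 (1.22), 1 of the 20 nucleators, Rnd3 (1.42), 1 of the 21 regulators, and Axl (1.27), 1 of the 15 MRTF and YAP genes, given as KO minus WT, and for 0.974% of all genes. All 3 passed without WT stiff 1 and without WT stiff 2, and of the other 6 fits with a library left out only Rnd3 passed in 1. Of the genes named from these lists, Abi3, Hcls1, Marcksl1, Lpxn and Axl in WT stiff, Fgr with IL-4 in WT and Rnd3 with IL-4 in KO passed with each of the 4 compared libraries left out in turn, and each of the others failed to pass in at least 1 of those fits.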

How the data were processed

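RNA of 12 libraries was measured by poly-A, strand-specific sequencing. The authors deposited 1 table of TPM values for 14098 genes; the notes of the submitters name Trim Galore 0.6.7, Salmon 1.4.0 and mm10, while the paper's methods describe alignment with STAR and counts from featureCounts, so how reads shared between near-identical genes were assigned is not settled. Columns were matched to the labels, and 0 were left unused. The 11194 genes that reached 1 TPM in 2 or more libraries were tested on log2(TPM + 1), a scale that understates the change of low genes, with limma 3.58.1 in R 4.3.3 (lmFit, eBayes with trend), 1 model with 6 group means and Benjamini-Hochberg adjustment within each comparison. The code was tested on simulated data. P-values measure only the spread between the libraries. The members and lists were chosen with earlier results of these data known. Named were all members past the test, 18 members whatever their values, and, of each further list, the 2 genes past the test that rose most and the 2 that fell most; 1 such gene is not reported here; members named beside these were chosen after their values were seen, and 7 listed symbols were found under another name. Shared words were counted in GENCODE vM21 transcripts (GRCm38), which also gave the coordinates.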

Additional observations from a re-analysis of the deposited data

Results flagged for a closer look

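The response of Coro1a to the stiff matrix differed between the labelled genotypes in a test of the difference itself, with the log2 fold change in KO minus that in WT at 1.37 (limma adjusted p = 0.0283). Both WT stiff libraries (173 and 265 TPM) lay below both WT soft ones (633 and 659 TPM), and both KO stiff libraries (548 and 573 TPM) below both KO soft ones (641 and 659.5 TPM).

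Ptk2b differed likewise, at 0.93 (limma adjusted p = 0.0101), with 48.9 and 48.0 TPM in WT stiff against 104 and 99.4 TPM in WT soft, and 89.9 and 88.6 TPM in KO stiff against 95.1 and 100.4 TPM in KO soft. Both differences rest on labels that Camkk2 goes against in 3 of the 8 libraries. The difference for Coro1a did not pass under median-of-ratios scaling, neither passed in a model of the 8 libraries alone, and over leaving out each of the 8 Coro1a passed in 2 fits and Ptk2b in 4. Groups of 2 libraries are too small for a search for single libraries that stand out.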

How the results depend on the processing

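The numbers of members past the test are given for WT stiff, IL-4 in WT, IL-4 in KO and the interaction of genotype with stiffness, which were 10, 7, 10 and 2 (at least 2-fold 4, 4 and 4). They were 1, 1, 1 and 0 (at least 2-fold 1, 1 and 1) without the 3 libraries that go against their Camkk2 label, 0, 17, 16 and 0 (at least 2-fold 0 in WT stiff) with only the libraries compared in the model, and the interaction gave 1 under median-of-ratios scaling. Without the filter on low values 2 members were at least 2-fold in WT stiff. Libraries were left out one at a time only in the comparisons that hold their group. The IL-4 comparisons were therefore not fitted with WT stiff 1 alone left out. With each library left out in turn, the numbers ranged from 3 to 27, 4 to 6, 4 to 5 and 0 to 17, and at least 2-fold from 2 to 5, 3 to 4 and 2 to 3; a lone library was then assumed to vary like the other groups. A pseudocount of 0.1 changed none of the counts. Shares of all genes past the test were counted in the model of all 12 libraries only, so these numbers have no share to stand beside. KO stiff and the interaction with IL-4 gave 0 under every alternative. The libraries share replicate numbers that could not be shown to pair them (correlations of deviations over genes from -0.05 to 0.31). Among WT soft, KO soft and KO stiff these correlations were 0.28 to 0.31. In each of the 6 groups replicate 1 had more genes at 0 TPM (10.7% to 13.4%) than replicate 2 (5.90% to 7.54%). With the replicate number as a block the numbers were 11, 10, 11 and 2. Of 3128 alternative values of the 46 members, 243 changed sign, 2 of them with a value past the test: in WT stiff Cfl1 was at 0.26 without WT stiff 1 and Capg at -0.35 without WT stiff 2 (0.52 without WT stiff 1), against -0.05 and 0.08 with both. Cfl1 was at -0.35 without WT stiff 2. Depth is unknown.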
